A study of Mus musculus with 12 samples.

Results

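The complement genes examined here are C1qa, C1qb, C1qc, C3, C4b, C3ar1, C5ar1, Cfb and Cfp, a list of 9 genes, and their members in the data are all open chromatin peaks that the authors annotated to one of these names. Of the 9 genes, 8 had a peak and Cfb had none. They held 19 of 60288 merged peaks in untreated mice and 17 of 54953 merged peaks in mice given lipopolysaccharide (LPS), a bacterial endotoxin. Open chromatin was measured by ATAC-seq, which tags DNA where a transposase can reach it, and accessibility does not measure the amount of RNA or protein.

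All 12 libraries came from brains of bone marrow chimeras, which are mice irradiated with 950 cGy and given donor marrow, so the irradiation and the graft are shared by every group. Hosts were wild type C57BL/6J mice aged 6 weeks at transplantation, and the graft was congenic wild type marrow with the CD45.1 allele. The methods also name Cx3cr1-GFP or CX3CR1-Cre:R26-RFP fl/fl donors for chimeras, without tying them to these libraries. CD45.1 cells (graft-derived macrophages that had settled in the brain) and CD45.2 cells (host microglia) were sorted from the same animal as Ly6C/G-negative, CD11b+ and CD45-low cells. There were 4 groups of 3 libraries, one per population and treatment. Mice 4, 5 and 6 were untreated, and mice 1, 2 and 3 were killed 12 h after an injection of 2.5 mg/kg LPS. The labels give 3.5 or 9 months after transplantation without assigning either to a mouse, and the main text names the longer one for these profiles.

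Complement is a cascade of plasma and tissue proteins that marks targets for uptake and recruits leukocytes. C1q, built from the chains encoded by C1qa, C1qb and C1qc, recognizes a target and starts the classical pathway, which cleaves C4 and then C3, the central component. The receptors C3ar1 and C5ar1 bind the small fragments released from C3 and C5, while factor B (Cfb) and properdin (Cfp) form and stabilize the convertase of the alternative pathway. In the brain, microglia are a main source of C1q, and complement is best known there for synapse removal during development and for its activation in disease and inflammation.

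At most peaks of these genes no difference between the populations was called, and the differences that passed the test lay at C3ar1 and C4b. In untreated mice the C3ar1 promoter was 1.81-fold less accessible in CD45.1 cells than in CD45.2 cells, a C3ar1 peak 6893 bp upstream was 2.53-fold more accessible, and a peak 17716 bp upstream of C4b was 6.5-fold more accessible. The C3 and C5ar1 promoter peaks held more tags after LPS in both populations, and both peaks were also wider there. Scaled to peak width the C5ar1 rise was under 2-fold, and treatment cannot be told apart from the separate peak calling. The distal C3ar1 peak was more accessible after LPS in CD45.2 cells, and its response differed between the populations.

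The sequences of the regions that carry these differences are printed from the mm9 genome, plus strand, without the exonic bases. All 9 genes are transcribed from the minus strand, so upstream lies at higher coordinates. Capitals mark a match to a letter pattern searched on both strands in the central 200 bp of each peak, which describes the letters and not a bound factor. The patterns were PU.1 (GAGGAAGT), CEBP (TTGCNNAA), AP-1 (TGANTCA), AP-1 with a spacer (TGANNTCA), NF-kB (GGGNNTTCC), IRF (GAAANNGAA) and STAT (TTCNNNGAA). The whole distal C3ar1 peak, chr6:122812969-122813168, holds a CEBP match, as did 9.81% of all peaks in untreated mice. The part of the C3ar1 promoter peak outside the exon, chr6:122806180-122806253, and the C4b peak, chr17:34898490-34898626, each hold an AP-1 match, which 8.11% of all peaks held. The part of the C3 promoter peak outside the exon, taken with its wider bounds after LPS, chr17:57367560-57367706, holds a CEBP match, present in 12.2% of the peaks in LPS-treated mice.
C3ar1, 6893 bp upstream: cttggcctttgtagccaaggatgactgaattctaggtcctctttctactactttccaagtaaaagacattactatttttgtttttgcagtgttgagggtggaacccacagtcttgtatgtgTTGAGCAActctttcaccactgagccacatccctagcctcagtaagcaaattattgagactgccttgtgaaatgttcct
C3ar1, promoter: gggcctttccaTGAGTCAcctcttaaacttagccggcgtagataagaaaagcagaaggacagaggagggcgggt
C4b, 17716 bp upstream: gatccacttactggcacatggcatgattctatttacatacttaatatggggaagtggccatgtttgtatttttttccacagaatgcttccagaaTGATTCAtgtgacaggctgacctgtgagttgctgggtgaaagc
C3, promoter: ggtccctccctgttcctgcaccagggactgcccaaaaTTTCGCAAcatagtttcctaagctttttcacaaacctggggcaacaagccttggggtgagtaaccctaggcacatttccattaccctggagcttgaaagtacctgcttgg

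The distal C3ar1 peak and the C4b peak overlap repeats in the annotation (an ID_B1 element of the SINE class and an ETnERV2-int element of the ERVK family). In the C4b peak 9 of 106 windows of 32 bases had another exact copy in mm9, and in the distal C3ar1 peak 0 of 169 did, and tags of the copied windows cannot be assigned to the C4b site alone. Patterns at the other members included a STAT match at C1qa, a PU.1 match 1804 bp upstream of C3, IRF matches at C5ar1 and AP-1 matches at C5ar1 and Cfp, each of them in under 10% of all peaks of untreated mice.

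The depth was 8392877.5 to 9107770 tags per library in untreated mice and 2966364 to 6556594.5 after LPS, so peaks of LPS-treated mice rest on fewer tags. Between 18.4% (CD45.2 mouse 4) and 39.0% of tags fell in peaks. Sums over 8 host microglia markers did not overlap between the populations in untreated mice, at 1393 to 1976 normalized tags in CD45.1 libraries against 3117 to 3311 in CD45.2 libraries. The sums over 5 markers of grafted macrophages ran the other way, at 1065 to 1138 against 609.5 to 692, and the 7 general macrophage markers overlapped (2259 to 2303 against 2175 to 2396). After LPS the first pair of sums was 679 to 797 against 1008 to 1201. Neuron markers were also lower in the untreated CD45.1 libraries (54.1 to 64.8 against 194 to 219.5). Of 6 neutrophil markers 2 had a peak in untreated mice and 5 after LPS, with sums of 34.2 to 50.1 in CD45.1 and 50.3 to 81.1 in CD45.2 libraries untreated and of 33.3 to 82.1 and 36.8 to 103 after LPS. The neutrophil marker S100a9 was called lower in untreated CD45.1 cells (log2 −1.13). Of 5 T cell markers 3 had a peak (not Cd3e and Cd3g), with overlapping sums in untreated mice (169 to 203 against 189 to 195), within which Cd3d was called higher in CD45.1 cells (log2 0.73) and Lck lower (−0.90). After LPS the T cell sums did not overlap (37.7 to 61.5 in CD45.1 against 63.2 to 69.2 in CD45.2 libraries), and no T cell marker was called. Of 4 B cell markers only Ms4a1 had a peak, and it was called higher in untreated CD45.1 cells (92.8 to 119 against 26.7 to 35.2, log2 1.76). Its tags did not overlap after LPS either (23.6 to 37.6 against 12.2 to 14.5), where it was not called. The part of these markers in the results was not tested. In bulk libraries, fewer cells with an open site and less opening per cell cannot be told apart.

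The first comparison asked whether graft-derived cells and host microglia of the same untreated brains differ in open chromatin at these genes. All values are normalized tags, which are the deposited tags per peak divided by the size factor of the library, and a peak was called at an adjusted p under 0.05 in DESeq2 over all peaks tested. Of 19 member peaks 3 were called, 2 with more and 1 with fewer tags in CD45.1 cells, where 14.9% of all peaks tested were called. Under the stricter rule of an adjusted p under 0.01 and over 4-fold, 1 member peak was called, beside 6.43% of all peaks. The median log2 fold change (CD45.1 over CD45.2) was −0.01 over the member peaks and 0.00 over all peaks. The share of members called was thus close to the background, and the values of the single genes follow by role.

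C1q genes had the highest promoter accessibility among the members together with C3ar1. The 3 genes lie side by side on chromosome 4, at chr4:136436044-136442102 (C1qb), chr4:136445719-136448980 (C1qc) and chr4:136451832-136454718 (C1qa), and each had a peak at its start site in all 6 deposited peak lists of untreated mice. The C1qb promoter peak (chr4:136442137-136442312) held 127, 173 and 155 normalized tags in CD45.1 cells of mice 4, 5 and 6, and 149, 166 and 142 in CD45.2 cells. The groups overlapped, and the log2 difference was −0.01 with a 95% interval of −0.35 to 0.33 (adjusted p = 0.989, DESeq2). At the C1qa promoter (chr4:136454719-136454873) the libraries held 111, 139 and 129 tags in CD45.1 cells and 131, 146 and 125 in CD45.2 cells. Here the log2 difference was −0.09 (−0.44 to 0.26, adjusted p = 0.853 in DESeq2). The C1qc promoter peak (chr4:136448837-136448999) held 109, 139.6 and 123 against 132, 126 and 107 tags, a log2 difference of 0.04 (−0.33 to 0.40, adjusted p = 0.954 in DESeq2). The chains of one protein thus had overlapping values in both populations. Per 100 bp of peak the promoters held 83.9 (C1qa), 86.3 (C1qb) and 75.3 (C1qc) normalized tags, above 91.2% to 93.5% of all peaks. A weaker peak 8400 bp upstream of C1qa held 9.33 to 13.7 against 12.0 to 18.8 tags and was not called (adjusted p = 0.768, DESeq2).

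**Figure D1:**
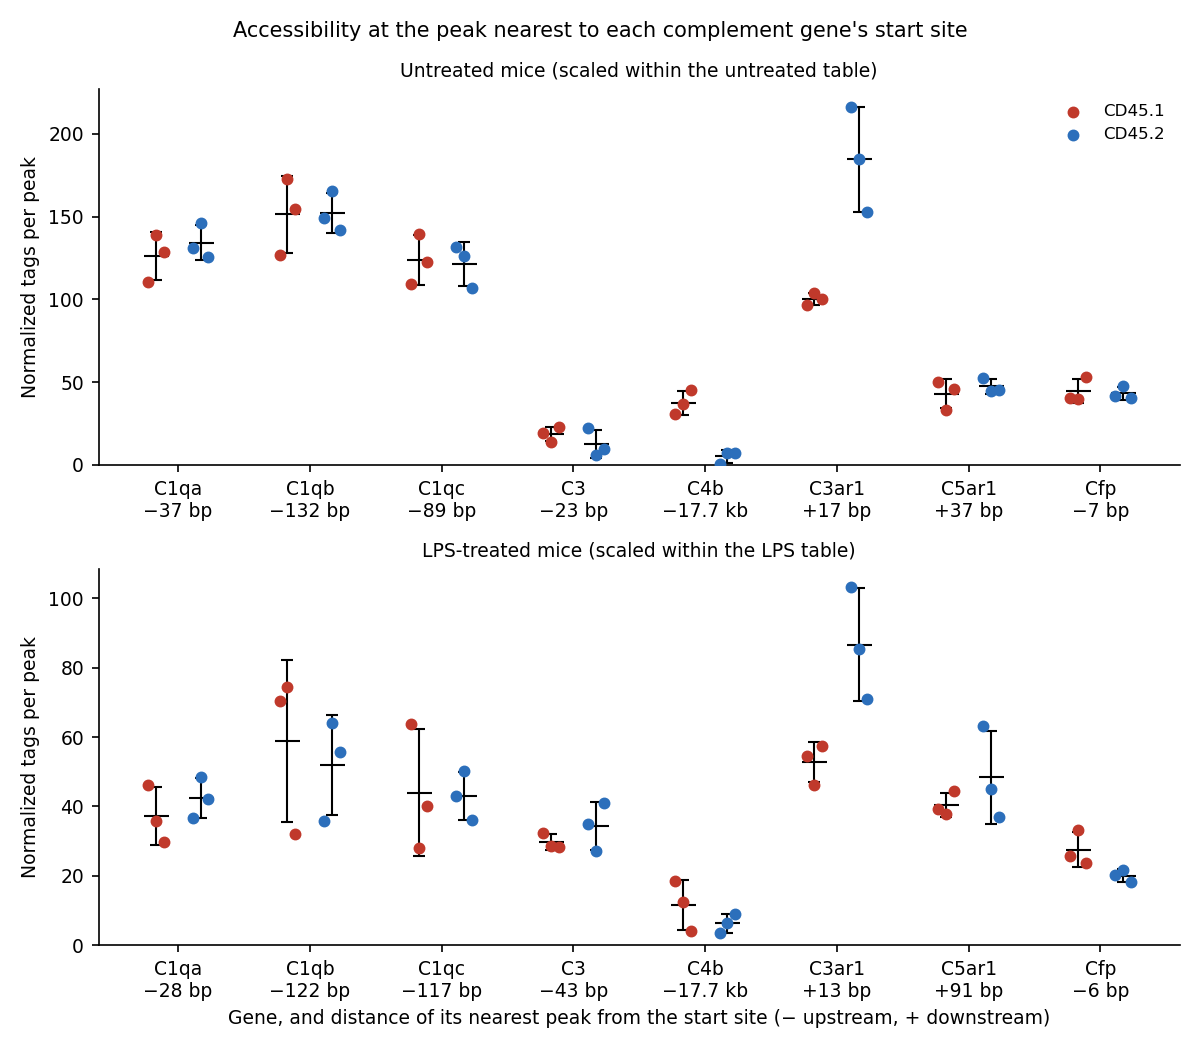
Normalized tags (vertical axis) at the peak nearest to the start site of each complement gene, with untreated mice above and LPS-treated mice below, each scaled within its own table. Points are libraries (red CD45.1, blue CD45.2) and black marks are the mean and SD of 3 libraries, and in untreated mice the populations do not overlap at C4b, where CD45.1 is higher, and at C3ar1, where CD45.1 is lower.

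C3, whose product is cleaved by every pathway, had a weak promoter peak in untreated mice (chr17:57367530-57367634). It held 19.1, 14.1 and 22.9 tags in CD45.1 cells and 22.1, 5.81 and 9.74 in CD45.2 cells, a level of 14.9 tags per 100 bp that exceeded 36.2% of all peaks. The groups overlapped, and the log2 difference of 0.64 was not called (−0.37 to 1.65, adjusted p = 0.535 in DESeq2). The peak stood in the deposited lists of 3 CD45.1 libraries and 1 CD45.2 library. A second C3 peak, 1804 bp upstream, had a log2 difference of 0.32 (−0.68 to 1.32, adjusted p = 0.815).

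C4b, the classical pathway component cleaved by C1s, had no peak at its promoter in either table. Its 2 peaks in untreated mice were assigned to it because its start site is the nearest, which says nothing of the gene they serve. The peak 17716 bp upstream held 30.8, 37.0 and 45.196 tags in CD45.1 cells and 0.819, 7.35 and 7.30 in CD45.2 cells, with no overlap. These values rest on 33, 40.5 and 41.5 deposited tags against 0.5, 9.5 and 9. The mean was 37.6 ± 7.23 against 5.16 ± 3.76 (SD, n = 3 each), a log2 difference of 2.70 (SE 0.50, 1.71 to 3.69) with an adjusted p of 3.82e-06 in DESeq2. The deposited lists held this peak in 3 CD45.1 libraries, at 40.4-fold to 47.7-fold over the local background, and in 0 CD45.2 libraries. With libraries scaled to their total tags the log2 difference was 2.60 and no longer called (adjusted p = 0.0621, DESeq2). The other C4b peak, 30683 bp downstream in intron 18 of 32 of Tnxb, held 16.8, 13.2 and 21.2 against 5.74, 18.96 and 7.71 tags and was not called (0.56, −0.48 to 1.59, adjusted p = 0.627 in DESeq2). C4b has a near-identical neighbour, C4a, and 2 of 82 windows of the downstream peak had another copy in the genome.

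C3ar1, the receptor of the C3a fragment (chr6:122797156-122806179), showed differences in opposite directions at its promoter and at an upstream peak outside the gene. The upstream peak is intergenic and was assigned to C3ar1 because its start site is the nearest, which says nothing of the gene it serves. The C3ar1 values were as follows. The promoter peak (chr6:122806063-122806253) held 96.5, 104 and 100.2 tags in CD45.1 cells and 216, 185 and 153 in CD45.2 cells, so that every graft library was below every host library. The mean was 100.1 ± 3.53 against 185 ± 31.7 (SD, n = 3 each), a log2 difference of −0.86 (SE 0.18, −1.21 to −0.51) with an adjusted p of 4.56e-05 in DESeq2. The peak 6893 bp upstream (chr6:122812969-122813168) held 107, 127 and 146 tags in CD45.1 cells and 65.5, 48.0 and 40.6 in CD45.2 cells, again without overlap. Its mean was 127 ± 19.8 against 51.4 ± 12.8 (SD, n = 3 each), a log2 difference of 1.34 (SE 0.23, 0.89 to 1.79) with an adjusted p of 3.78e-07 in DESeq2. It was listed in all 6 untreated libraries at 21.7-fold to 31.9-fold over the local background. Scaled to total tags the distal difference was still called (1.37, adjusted p = 0.0013, DESeq2), while the promoter difference was −0.82 and not called (adjusted p = 0.111). The 3 peaks between 1441 and 3254 bp downstream of the start site had log2 differences of −0.49, −0.10 and −0.42, none of them called, and the first and last of these did not overlap between the groups.

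C5ar1, the receptor of C5a (chr7:16832092-16844889), had 4 peaks in untreated mice and none was called. The promoter peak (chr7:16844580-16844720) held 50.4, 33.3 and 45.7 tags in CD45.1 cells and 52.4, 44.5 and 45.4 in CD45.2 cells (log2 difference −0.14, −0.70 to 0.43, adjusted p = 0.871 in DESeq2). The highest C5ar1 peak lay 1334 bp downstream (chr7:16843275-16843431), with 108, 109 and 109 tags against 116, 136 and 98.6. Its log2 difference was −0.11 (−0.48 to 0.27, adjusted p = 0.841 in DESeq2), and at 71.7 tags per 100 bp it exceeded 90.4% of all peaks. The other two, 4884 bp downstream and 3648 bp upstream, had log2 differences of 0.16 and 0.23.

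Cfp, which encodes properdin (chrX:20502580-20508681), had a promoter peak (chrX:20508621-20508755) with 40.6, 40.2 and 53.4 tags in CD45.1 cells and 41.8, 47.6 and 40.2 in CD45.2 cells. The peak 612 bp upstream held 54.6, 54.8 and 49.0 against 45.9, 66.2 and 59.6 tags. The log2 differences were 0.03 (−0.53 to 0.59, adjusted p = 0.98) and −0.15 (−0.66 to 0.35, adjusted p = 0.83), and neither was called by DESeq2. Cfb (chr17:34993319-34999463) had no peak of its own name. A peak inside its intron 10 of 17 was annotated to Mir6972, so it is outside the rule and was looked up after the values were seen, and it held 28.1 ± 2.51 against 27.8 ± 1.00 tags (SD, n = 3 each) in untreated mice.

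**Figure D2:**
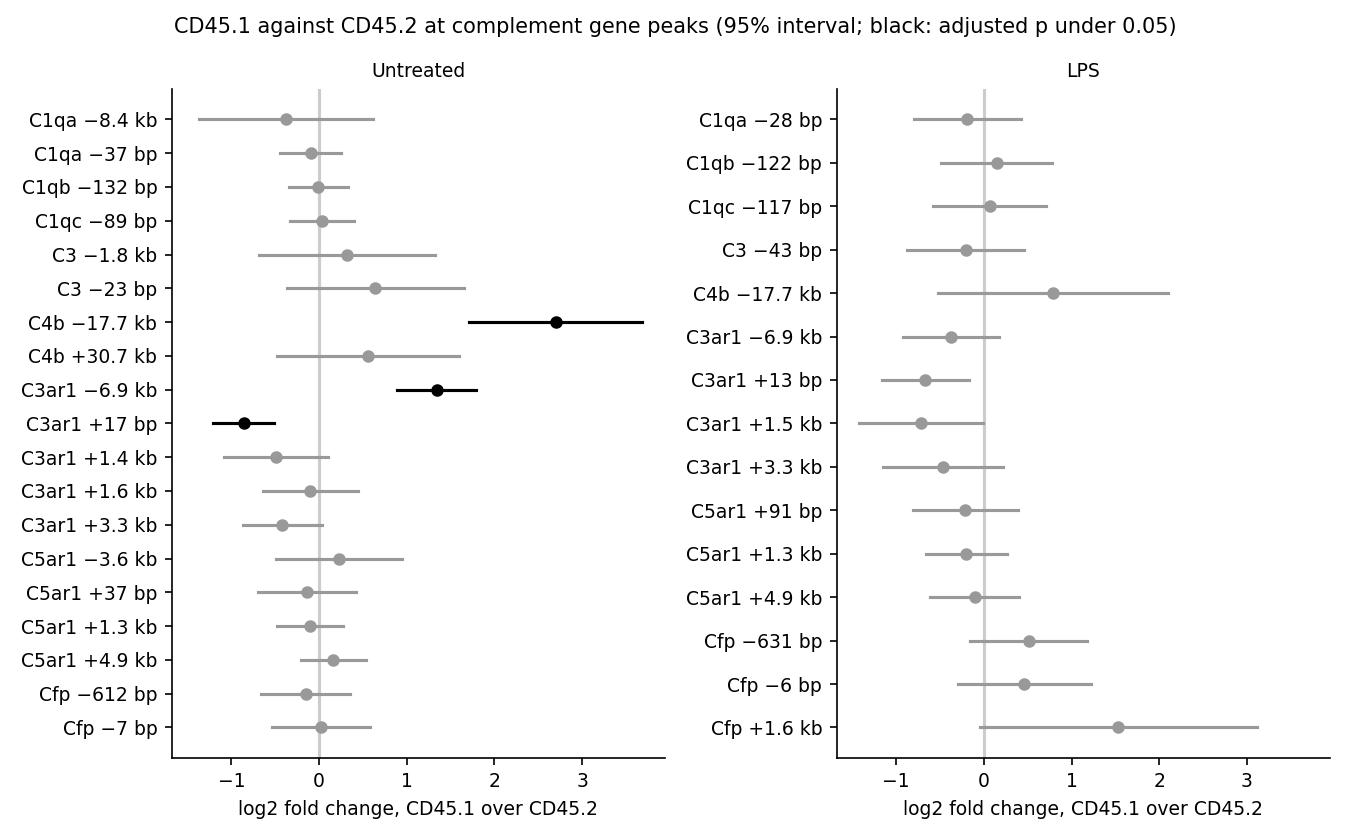
Log2 fold change of normalized tags, CD45.1 over CD45.2 (horizontal axis), at each tested complement gene peak in untreated mice (left, 19 peaks) and LPS-treated mice (right, 15 peaks), with 95% intervals. Black points have an adjusted p under 0.05, and these are C4b at 17716 bp upstream and C3ar1 at 6893 bp upstream on the positive side and the C3ar1 promoter on the negative side, with 0 in LPS-treated mice.

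Tags summed over all peaks of a gene gave 1 value per gene, and 1 of 8 members was called in untreated mice, where 15.1% of all genes tested were called. C4b held 47.6, 50.2 and 66.4 tags in CD45.1 cells and 6.55, 26.3 and 15.0 in CD45.2 cells, without overlap (log2 1.69, SE 0.37, 0.95 to 2.42, adjusted p = 0.000117 in DESeq2). Scaled to total tags this sum was not called (1.59, adjusted p = 0.379). The C3ar1 sum, in which the opposite peaks are added, was 379.8 ± 16.4 against 427 ± 36.5 (SD, n = 3 each) and not called (−0.17, −0.39 to 0.06, adjusted p = 0.451 in DESeq2). By its nearest peak alone C3ar1 was called (−0.86, adjusted p = 6.88e-05). The other sums had log2 differences of −0.12 (C1qa), −0.01 (C1qb), 0.03 (C1qc), 0.02 (C5ar1), −0.06 (Cfp) and 0.48 (C3).

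The same comparison was made in LPS-treated mice. Of 17 member peaks 15 passed the filter of more than 10 tags in at least 1 of 6 libraries, and the peaks 1786 bp upstream of C3 and 7703 bp downstream of C1qb did not. DESeq2 called 0 of the 15, beside 6.46% of all peaks. At an unadjusted p under 0.05 there were 2, beside 15.5% of all peaks, and edgeR called 1, beside 12%. The median log2 difference was −0.19 over the members and −0.01 over all peaks. Scaling to total tags moved the median of all peaks by 0.14 on the log2 scale and the share of calls that were higher in CD45.1 cells from 63.2% to 72.6%.

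C1q promoters again overlapped between the populations. The C1qb promoter held 70.3, 74.4 and 32.1 tags in CD45.1 cells of mice 1, 2 and 3 and 35.9, 64.1 and 55.8 in CD45.2 cells (0.15, −0.49 to 0.78, adjusted p = 0.911 in DESeq2). At C1qa the log2 difference was −0.19 (−0.80 to 0.42), with 46.1, 35.9 and 29.7 against 36.8, 48.4 and 42.2 tags. At C1qc it was 0.07 (−0.58 to 0.71), with 63.9, 28.0 and 40.1 against 42.9, 50.2 and 36.2 tags. The intervals are wider than in untreated mice, so larger differences than before could have gone undetected.

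The C3 promoter held 32.3, 28.7 and 28.3 tags in CD45.1 cells and 35.0, 27.0 and 41.0 in CD45.2 cells after LPS (−0.21, −0.88 to 0.46, adjusted p = 0.87 in DESeq2). It stood in all 6 deposited lists at 19.2-fold to 28.1-fold over the local background. The C4b peak, here 17739 bp upstream, held 18.6, 12.4 and 4.25 against 3.50, 6.54 and 8.91 tags. The groups overlapped after LPS, and the log2 difference of 0.79 had an interval of −0.53 to 2.10 (adjusted p = 0.677, DESeq2).

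At C3ar1 the promoter peak held 54.6, 46.3 and 57.6 tags in CD45.1 cells and 103, 85.5 and 71.0 in CD45.2 cells after LPS, again without overlap. The log2 difference was −0.67 (SE 0.25, −1.16 to −0.18), which missed the threshold in DESeq2 (adjusted p = 0.0949) and passed it in edgeR (−0.64, adjusted p = 0.0309). The distal peak (chr6:122813002-122813193) held 47.7, 54.1 and 43.4 against 82.3, 60.6 and 49.9 tags, and the groups overlapped (−0.37, −0.92 to 0.17, adjusted p = 0.607 in DESeq2). Summed over its 4 peaks C3ar1 held 145, 149 and 151 tags in CD45.1 cells against 257, 222 and 187 in CD45.2 cells. This sum was the 1 of 8 members called (−0.57, SE 0.18, −0.93 to −0.21, adjusted p = 0.0311 in DESeq2), beside 6.95% of all genes tested. The call was lost with the mouse as a block (−0.57, adjusted p = 0.276), with the nearest peak only (−0.67, adjusted p = 0.142), scaled to total tags (−0.41, adjusted p = 0.31) and without any one of 5 of the 6 libraries (adjusted p = 0.111 to 0.221). It was kept without CD45.2 LPS replicate 3 (−0.71, adjusted p = 0.0151).

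The C5ar1 promoter after LPS held 39.2, 37.8 and 44.3 tags in CD45.1 cells and 63.1, 44.9 and 37.1 in CD45.2 cells (−0.21, −0.81 to 0.39, adjusted p = 0.846 in DESeq2). The peak 1327 bp downstream held 63.1, 76.3 and 73.1 against 73.6, 91.6 and 76.6 tags (−0.20, −0.66 to 0.26, adjusted p = 0.798). The Cfp peak 1606 bp downstream rested on 15, 3 and 11 deposited tags in CD45.1 cells against 1, 3.5 and 5.5 in CD45.2 cells. It was not called (1.53, −0.05 to 3.11, adjusted p = 0.349 in DESeq2). At the other Cfp peaks the normalized tags did not overlap between the groups, and how often all peaks separate in this way was not counted. The promoter held 25.9, 33.3 and 23.6 against 20.1, 21.8 and 18.1 tags, and the peak 631 bp upstream held 35.6, 33.9 and 37.3 against 28.9, 26.6 and 22.3. The log2 differences were 0.46 (−0.30 to 1.22) and 0.51 (−0.16 to 1.18), and neither was called by DESeq2 (adjusted p = 0.672 and 0.538). The Cfp sum of 72.0 ± 1.39 against 48.6 ± 4.34 (SD, n = 3 each) was not called in DESeq2 (0.58, 0.08 to 1.07, adjusted p = 0.191) and was called in edgeR (0.61, adjusted p = 0.0459), which called 9.9% of all genes.

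The next comparison asked how LPS changed the members within each population. Peaks of both tables that overlapped one to one by at least 50% of each were fitted in a single model of 12 libraries, with 39390 pairs in all and 14 member pairs. The remaining 5 member peaks of untreated mice and 3 of LPS-treated mice had no partner. A change was called at an adjusted p under 0.05 and over 2-fold in DESeq2. Treatment and table cannot be told apart in this contrast, since peaks of LPS-treated mice were called separately and were wider (median 167 bp against 132 bp), and 9 of the 14 member pairs were wider after LPS. Values scaled to peak width are therefore given where they matter.

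In CD45.1 cells 2 of 14 member pairs rose after LPS and 0 fell, beside 6.77% and 4.98% of all pairs. An adjusted p was available for 13 of the 14 there. In CD45.2 cells 3 rose and 0 fell, beside 7.68% and 3.7%. At an unadjusted p under 0.05, with no limit on the fold, there were 5 and 7 member pairs, beside 32.3% and 28.3% of all pairs. Median log2 changes were −0.00 and −0.02 over the members, and −0.00 and −0.01 over all pairs. The pairs that rose were the C3 promoter and the C5ar1 promoter in both populations and the distal C3ar1 peak in CD45.2 cells.

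On the scale of the 12 libraries the C3 promoter held 12.8, 9.49 and 15.0 tags in untreated CD45.1 cells and 46.9, 42.8 and 42.0 after LPS. In CD45.2 cells it held 14.7, 3.95 and 6.59 untreated and 50.4, 39.2 and 60.4 after LPS. Every library after LPS was above every untreated library of its population. The rise was 3.56-fold in CD45.1 cells (log2 1.83, SE 0.35, 1.15 to 2.52, adjusted p = 7.02e-06 in DESeq2) and 6.54-fold in CD45.2 cells (2.71, SE 0.38, 1.97 to 3.45, adjusted p = 1.04e-10). This peak was 105 bp wide in untreated mice and 209 bp after LPS, and scaled to width the log2 changes were 1.110 (adjusted p = 0.0145) and 1.98 (adjusted p = 9.47e-06), still called. The difference between the populations in this response was not called (−0.88, −1.89 to 0.13, adjusted p = 0.966 in DESeq2). The weak peak 1804 bp upstream of C3 did not follow, with log2 changes of −0.94 and −1.25. The first had no adjusted p, and the second was not called.

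The C5ar1 promoter held 33.6, 22.4 and 30.1 tags in untreated CD45.1 cells and 56.8, 56.4 and 65.8 after LPS. In CD45.2 cells the values were 34.8, 30.3 and 30.8 untreated and 90.8, 65.1 and 54.7 after LPS. The rise was 2.09-fold (log2 1.06, 0.54 to 1.58, adjusted p = 0.00095 in DESeq2) and 2.12-fold (1.08, 0.58 to 1.59, adjusted p = 0.000484), with no overlap in either population. Scaled to width (141 bp against 212 bp) the log2 changes were 0.74 (adjusted p = 0.0294) and 0.77 (adjusted p = 0.0237), which is under 2-fold. Leaving out CD45.1 untreated replicate 5, CD45.1 LPS replicate 3 or CD45.2 LPS replicate 1 also brought a change below that limit (0.90, 0.98 and 0.91). Scaled to total tags the change in CD45.2 cells missed the p threshold as well (0.95, adjusted p = 0.054, DESeq2). The C5ar1 peak 1334 bp downstream had log2 changes of 0.52 (adjusted p = 0.0411) and 0.58 (adjusted p = 0.019), past the p threshold but under 2-fold.

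**Figure D3:**
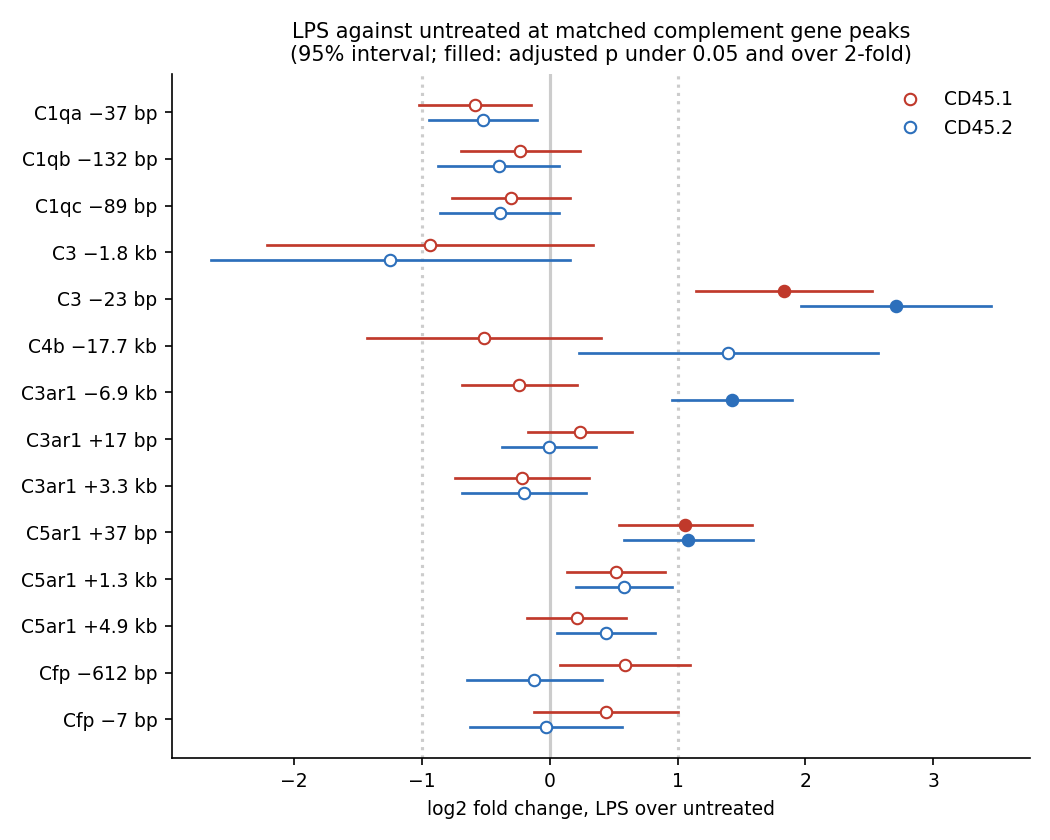
Log2 fold change of normalized tags after LPS over untreated (horizontal axis) at the 14 matched complement gene peaks, with 95% intervals, in CD45.1 (red) and CD45.2 (blue) cells. Filled points passed an adjusted p under 0.05 and 2-fold, and dotted lines stand at 2-fold, with C3 and C5ar1 promoters filled in both populations and the distal C3ar1 peak filled in CD45.2 cells only, a difference tested by the interaction of −1.66.

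C1q promoters had negative log2 changes in both populations, none of them past 2-fold. At C1qa the mean was 83.9 ± 9.83 untreated and 54.8 ± 11.4 after LPS in CD45.1 cells, and 90.4 ± 7.79 and 61.7 ± 8.58 in CD45.2 cells (SD, n = 3 each). Neither population overlapped between treatments, and the log2 changes were −0.59 (−1.02 to −0.15, adjusted p = 0.043 in DESeq2) and −0.52 (−0.94 to −0.10, adjusted p = 0.0767). C1qb had −0.23 and −0.40 and C1qc −0.31 and −0.39, with adjusted p of 0.27 to 0.532. Scaled to width the changes of C1qc were −0.65 (adjusted p = 0.0321) and −0.74 (adjusted p = 0.0163). Those of C1qa were then −0.67 (adjusted p = 0.0164) and −0.61 (adjusted p = 0.0319), and those of C1qb stayed past no threshold (adjusted p = 0.421 and 0.201).

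The distal C3ar1 peak was the member whose response to LPS differed between populations. It had nearly the same width in both tables (200 and 192 bp). On the common scale it held 71.3, 85.1 and 96.4 tags in untreated CD45.1 cells and 69.1, 80.7 and 64.4 after LPS. In CD45.2 cells it held 43.5, 32.7 and 27.5 untreated and 119, 87.8 and 73.5 after LPS. The host libraries thus moved from below all graft libraries to a range reaching above them, while the graft libraries overlapped between treatments. The log2 change was −0.24 in CD45.1 cells (SE 0.23, −0.69 to 0.21, adjusted p = 0.491 in DESeq2) and 1.42 in CD45.2 cells, a rise of 2.68-fold (SE 0.24, adjusted p = 1.65e-07). The interaction, the change in CD45.1 minus that in CD45.2 cells, was −1.66 (SE 0.33, −2.31 to −1.01, 3.17-fold, adjusted p = 0.000718 in DESeq2). This peak was the 1 called for the interaction among 13 member pairs with an adjusted p, beside 0.242% of all pairs tested. Of those 39235 pairs, 36192 had an adjusted p. Over all pairs 95 interactions were called, 88 of them negative and 7 positive, so the direction at this peak was the common one. A factor that acts alike on both populations at a peak, such as its width, cancels in this contrast. The call was kept under all 20 alternatives tried (log2 −1.83 to −1.50, adjusted p = 0.000299 to 0.0454 in DESeq2 or edgeR). Scaling to width, which is among these alternatives, could hardly change the contrast for that reason. The interaction and the untreated difference at this peak share libraries and are not independent.

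The C3ar1 promoter, by contrast, held 66.6 ± 2.61 tags untreated and 77.8 ± 8.25 after LPS in CD45.1 cells, and 124 ± 20.1 and 126 ± 22.2 in CD45.2 cells (SD, n = 3 each). Its log2 changes were 0.24 (adjusted p = 0.439) and −0.00 (adjusted p = 0.994), neither called by DESeq2. Scaled to width (191 bp against 179 bp) they were 0.60 (adjusted p = 0.0224, DESeq2) and 0.36 (adjusted p = 0.185). The first then passed the p threshold but stayed under 2-fold. The C4b peak had means of 25.03 ± 4.60 and 17.2 ± 10.4 in CD45.1 cells and 3.50 ± 2.56 and 9.22 ± 4.05 in CD45.2 cells (SD, n = 3 each). Its interaction of −1.91 had a wide interval (−3.39 to −0.43) and was not called (adjusted p = 0.633, DESeq2). The Cfp peak 612 bp upstream had log2 changes of 0.59 (adjusted p = 0.0865) in CD45.1 and −0.12 (adjusted p = 0.813) in CD45.2 cells, and the difference between them was not called (0.71, −0.02 to 1.44, adjusted p = 0.925). Scaled to width the Cfp changes were 0.91 (adjusted p = 0.00433, DESeq2) and 0.20 (adjusted p = 0.68), so the CD45.1 change passed the p threshold but not 2-fold.

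**Figure D4:**
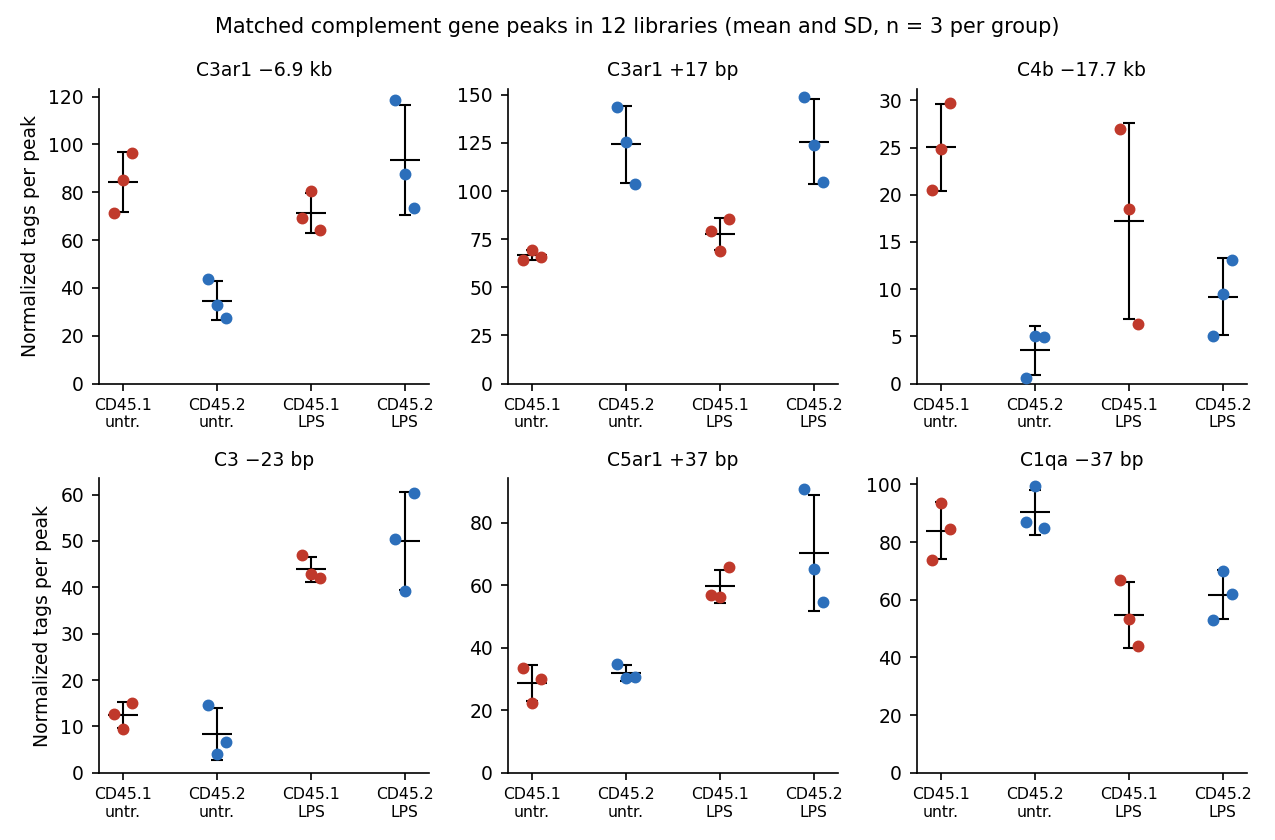
Normalized tags (vertical axis) on the common scale of the 12 libraries at 6 matched complement gene peaks, by population and treatment, with points for libraries (red CD45.1, blue CD45.2) and black marks for the mean and SD of 3. At the distal C3ar1 peak the CD45.2 mean goes from 34.6 untreated to 93.3 after LPS and the CD45.1 mean from 84.3 to 71.4, while at the C3 and C5ar1 promoters both populations are higher after LPS.

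Other complement genes were read from a list of 56 genes. In untreated mice 29 had a peak, and 1 gene sum was higher and 4 were lower in CD45.1 cells, beside the share of 15.1% of all genes. Cd93, a cell surface receptor once described as a C1q receptor, was higher at 526 ± 23.98 against 199 ± 39.8 tags (SD, n = 3 each, log2 1.40, adjusted p = 9.09e-21 in DESeq2). Among those lower were C1s2, a C1s protease gene (−0.85, adjusted p = 0.00632), the membrane regulator Cd46 (−1.18, adjusted p = 8.94e-06) and the receptor Cr2 (−0.64, adjusted p = 4.27e-06). These sums add all peaks assigned by the nearest start site, which says nothing of the gene they serve. The matched Cr2 peaks lay 56088 and 64912 bp upstream, and matched Cd93 peaks reached 92181 bp upstream. In LPS-treated mice 28 were tested, and Cd93 (1.40, adjusted p = 1.02e-12) and Cd46 (−1.16, adjusted p = 0.00879) were called in the same direction, beside 6.95% of all genes. Cfd, factor D of the alternative pathway, was also called, on sums of 2.61 to 10.5 normalized tags in CD45.1 cells and 0 to 0.436 in CD45.2 cells, too few for a fold. Of 58 matched peaks of 23 of these genes, 6 rose and 4 fell after LPS in CD45.1 cells and 6 rose and 3 fell in CD45.2 cells, beside the shares of all pairs given above (6.77% and 4.98%, and 7.68% and 3.7%). A peak 1203 bp upstream of C1s2 rose in both populations (log2 1.56 and 1.07, adjusted p = 1.9e-08 and 3.49e-05 in DESeq2). A peak 4127 bp upstream of C1ra, the gene of the partner protease, fell in both (−1.14 and −1.71, adjusted p = 0.0396 and 0.000764). Values scaled to peak width are not given for these genes, and treatment cannot be told apart from the separate peak calling here either.

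Genes whose sums varied across the 12 libraries most like those of C3ar1 were Senp6, Crybb1 and Ccdc90b, with root mean square differences of 0.102, 0.103 and 0.109 on the centred log2 scale, among 12293 genes with a median of 0.317. A gene with no variation would differ by 0.237, the spread of C3ar1 itself. Values were centred within each treatment, so a like response to LPS was not measured. C4b was not compared because its mean sum was too low after LPS.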

How the data were processed

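ATAC-seq libraries of 12 sorted populations were analysed from the deposited tables, and the complement genes and all gene lists were chosen with earlier results of these data known. Per the labels, processing used bcl2fastq 2.17.1.14, Bowtie2, Picard 1.108, HOMER and mm9, with no order or role given. The authors merged peaks separately for untreated and LPS-treated mice, annotated each to the nearest start site and deposited unnormalized tags per peak in steps of 0.5, treated here as estimated counts and rounded to whole numbers. The authors also deposited a peak list per library, from which the fold over the local background was taken (a ratio; per the file headers at a false discovery rate of 0.001 and at least 4-fold).

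Counts were fitted with DESeq2 1.42.0 in R 4.3.3 over all peaks with more than 10 tags in at least 1 of 6 libraries, with Benjamini-Hochberg adjustment over all features tested, and intervals are the estimate ± 1.96 SE. The libraries of a group came from separate mice. Both populations were sorted from the same animal, so mouse numbers pair the libraries. The correlations of their deviations from group means were 0.0807, 0.0822 and 0.0873 in untreated mice and −0.0665, 0.0608 and 0.149 after LPS. Values per library are given for the nearest and the highest peak of each gene and for every called peak. Like genes were the 3 with the smallest root mean square difference of log2(sum + 1) centred within each table, among genes with a mean sum of at least 20. Gene positions are from GENCODE vM1. The scripts were tested on simulated data. Alternatives were edgeR 4.0.16, 2 other scalings, other filters, the block, peak width, the overlap and leaving out each library. Columns of other tables were not used. Some items of the gene lists are not reported here.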

Additional observations from a re-analysis of the deposited data

Results flagged for a closer look

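The peak 6893 bp upstream of C3ar1 stood out because the effect of LPS differed between the populations by a direct test. Its interaction was −1.66 on the log2 scale (change in CD45.1 minus change in CD45.2 cells, SE 0.33, adjusted p = 0.000718 in DESeq2), with a change of −0.24 in CD45.1 cells and 1.42 in CD45.2 cells, where 3 of 3 LPS libraries were above 3 of 3 untreated libraries.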

How the results depend on the processing

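Of 179 alternative values of the 11 called single results, 162 kept the call. Scaled to total tags, 1 member peak (of 3) and 0 gene sums (of 1) were called in untreated mice and 0 gene sums (of 1) after LPS. A stricter rule, with the study's limits and its p read as adjusted, left 1 untreated peak. edgeR called 1 peak (against 0) and 2 sums (against 1) after LPS. With the nearest peak only, 2 sums were called untreated and 0 after LPS. With the mouse as a replicate block 0 sums were called after LPS. The block changed none of the other calls it was run for, with 3 untreated peaks, 1 untreated sum, 0 peaks after LPS and 1 interaction. It was not run for the LPS changes within a population, where the treatments are in separate mice. For LPS in CD45.1 cells, 1 peak was called with counts scaled to peak width and 4 without the fold limit, against 2. Leaving out 1 library gave 3 untreated peaks, 0 peaks after LPS, 1 untreated sum, 0 to 1 sums after LPS, 1 to 2 peaks changed in CD45.1 and 2 to 3 in CD45.2 cells, and 1 interaction. In CD45.2 cells 2 peaks were called with width scaling or total tags, against 3. Under total tags the share of calls higher in CD45.1 cells after LPS went from 63.2% to 72.6% (peaks) and from 55.8% to 69.0% (gene sums), and the cause was not tested. No called value changed sign, while 69 of 1431 values under an alternative did so, none of them called under either setting. Libraries after LPS held fewer tags, and the C4b peak difference there had an interval of −0.53 to 2.10.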
